A study of Mus musculus with 9 samples.

Results

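The white adipocyte genes of the mammary fat pad were taken as a fixed set of 9 genes, Adipoq, Retn, Lep, Cfd, Fabp4, Aqp7, Pnpla2, Lipe and Plin1, the last under its older array name Plin. Every probe that was not a control and that carried one of these gene names was kept, which gave 15 probes of 9 genes among the 41174 probes of the array. Gene expression was measured in mammary gland number 4 of single dams on lactation day 2 (L2), after their litter number 4, with a 1-color Agilent whole mouse genome oligo array for each mouse. Of the 9 dams, 4 were wild type (WT) and 5 carried a transgene for human NSAID activated gene 1 (hNAG-1, also known as GDF15, a circulating member of the TGF-beta superfamily). The strain background was labelled C57BL/7 for all 9 mice. The transgene is expressed in all tissues, so the dams differed in genotype throughout the body and not in the gland alone. The methods describe a main transgenic line and state that animals of a further line were combined with it in some experiments, and the labels do not give the line of each mouse. The human transgene transcript was not analysed here.

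White adipocytes fill the fat pad in which the mammary epithelium grows. They store triglyceride in a single large lipid droplet coated with perilipin, release fatty acids and glycerol from it by stepwise lipolysis, and secrete hormones known as adipokines. During pregnancy and lactation the secretory epithelium expands into the pad while the adipocytes lose much of their stored lipid. RNA of a whole gland holds the products of all its cells. The level of an adipocyte transcript thus depends on how many adipocytes the sample holds and on how much of the RNA each makes. Any other cells that make the same transcript add to it. These contributions cannot be told apart in such samples.

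The probes are 60 bases long, and where they sit decides which end of a transcript each one reads. Coordinates are those of the array design, on the mouse build mm7. The sequences below are those of the probes whose values the comparisons turn on or that read different stretches of the same transcript. Retn is read by a pair of probes that share the 22 bases set in capitals, so their values are not independent. Each of the pair lies over 822 bases of genome (chr8:3618519-3619340 and chr8:3618557-3619378, plus strand) and therefore crosses an exon junction.
Retn A_52_P55972: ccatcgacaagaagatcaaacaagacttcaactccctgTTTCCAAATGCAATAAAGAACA
Retn A_51_P233597: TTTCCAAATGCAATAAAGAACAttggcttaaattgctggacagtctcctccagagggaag
Adipoq was read by 1 probe (chr16:22816125-22816184, plus strand), shown because 1 WT mouse departed most clearly from the others there. Pnpla2 A_52_P681771 (chr7:137876465-137876524, plus strand) is the probe with the lowest p of the 15.
Adipoq A_51_P458451: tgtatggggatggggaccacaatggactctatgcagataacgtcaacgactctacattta
Pnpla2 A_52_P681771: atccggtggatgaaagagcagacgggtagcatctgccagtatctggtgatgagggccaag
Fabp4 (chromosome 3, minus strand) and Lipe (chromosome 7, minus strand) each have probes at different distances from the 5′ end. In Fabp4, A_52_P564544 (chr3:10216627-10216686) lies nearest the 5′ end and A_51_P336830 (chr3:10212718-10213447) crosses an exon junction further along. In Lipe, A_51_P435366 (chr7:22170761-22173014) lies upstream of A_51_P435363 (chr7:22170615-22170674).
Fabp4 A_52_P564544: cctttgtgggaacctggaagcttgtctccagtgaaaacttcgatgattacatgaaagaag
Fabp4 A_51_P336830: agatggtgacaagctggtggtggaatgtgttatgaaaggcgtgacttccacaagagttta
Lipe A_51_P435366: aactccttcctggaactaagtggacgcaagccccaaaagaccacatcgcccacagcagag
Lipe A_51_P435363: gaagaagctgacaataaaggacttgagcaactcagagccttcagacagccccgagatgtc

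Between 59.8% and 76.1% of the features on an array were well above background by the scanner software, and pairs of arrays correlated at 0.941 to 0.991 over probes. Each array was scaled to a common 75th percentile of its non-control features, and all levels below are these scaled intensities, on a linear scale with no unit. Levels are compared between arrays for one probe at a time, since the brightness of different probes is not comparable. Sums of intensity over the probes of a marker list are also given below. Such a sum is weighted towards the brightest probes of its list and is not a level of the cell type. All 15 adipocyte probes were well above background on all 9 arrays and none was saturated. The arrays lay on 3 slides: WT 1 alone on slide 1, hNAG-1 1 to 4 on slide 2, and WT 2 to 4 with hNAG-1 5 on slide 3. For WT 1 the mouse and the slide cannot be told apart. No WT mouse lay on slide 2, so for hNAG-1 1 to 4 genotype and slide cannot be told apart. Over all arrays, and without WT 1, the comparison of genotypes is thus largely also one of slides.

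In WT and hNAG-1 glands the adipocyte genes were measured at overlapping levels. At 13 of the 15 probes the mean was higher in hNAG-1 mice and at 2 it was lower, with a median log2 fold change (hNAG-1 minus WT) of 0.29 and a range from -0.12 to 1.00. Over all 41174 probes the median was -0.02. A single member probe, for Pnpla2, had an unadjusted p under 0.05 in limma's moderated test (background 5.6% of all probes, of which 1.15% higher and 4.45% lower in hNAG-1 mice), none passed after Benjamini-Hochberg adjustment over all probes (background 0.00243%), and none separated the genotypes without overlap (background 1.35%). The lowest adjusted p among the 15 was 0.661. Without WT 1, the median log2 fold change of the members fell to 0.09, with 11 of 15 probes higher in hNAG-1 mice and none at an unadjusted p under 0.05 (background 4.92%). With slide as a block, in which only the mice of slide 3 compare the genotypes, the median was 0.32, beside a median of 0.19 over all probes in that fit, and again no probe had an unadjusted p under 0.05 (background 7.61%).

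**Figure D1:**
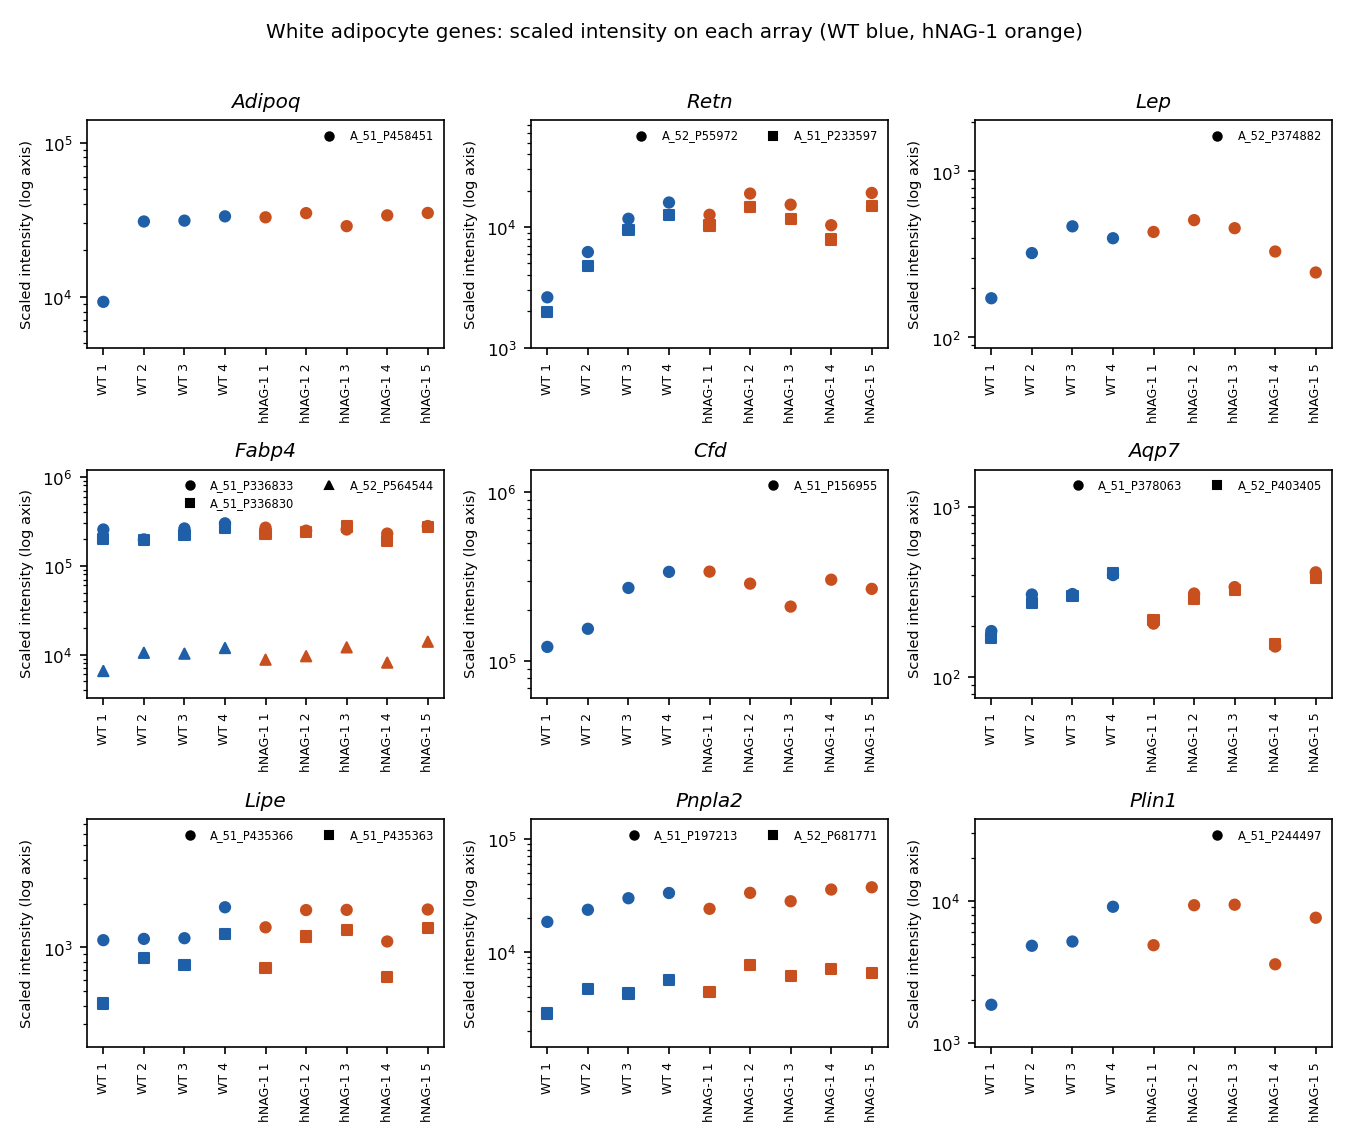
Scaled intensity (log axis) of each white adipocyte gene on each of the 9 arrays, WT in blue and hNAG-1 in orange, with a different marker for each probe of a gene. WT 1 has the lowest value at 10 of the 15 probes, and the remaining WT mice lie within or near the range of the hNAG-1 mice.

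Adipoq encodes adiponectin, an insulin-sensitizing hormone made by mature adipocytes. Its intensity was 9248 in WT 1, 30736 in WT 2, 31125 in WT 3 and 33189 in WT 4. In the hNAG-1 mice it was 32715, 34823, 28667, 33689 and 34921. Thus 8 of the 9 mice lay in a narrow band irrespective of genotype. WT 1 lay far below it, at 29.2% of the mean of WT 2 to 4 taken on the log2 scale. The WT mean was 26075 ± 11269 (SD, n = 4) and the hNAG-1 mean was 32963 ± 2566 (SD, n = 5). The log2 fold change was 0.50 (SE 0.36, 95% interval -0.31 to 1.31) with an adjusted p of 0.661 in limma. Without WT 1 it was 0.05 (95% interval -0.28 to 0.38). That interval sets no bound on the change, since it leaves out the mouse that departed at this probe. The interval over all 9 mice reached a 2.48-fold rise.

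Retn encodes resistin, an adipokine that opposes insulin action in mice. At A_52_P55972 the WT intensities were 2620, 6208, 11706 and 15960 in WT 1 to WT 4, and the hNAG-1 intensities were 12627, 18922, 15314, 10352 and 19152. The hNAG-1 mice lay in the upper part of the WT range, and 2 of the 5 exceeded every WT mouse. The WT mean was 9123 ± 5894 (SD, n = 4) against 15274 ± 3859 (SD, n = 5), a log2 fold change of 1.00 (SE 0.48, 95% interval -0.09 to 2.09) with an adjusted p of 0.661 in limma. The exact permutation test over mice, two-sided, gave p = 0.0873. This was the largest difference among the 15 probes. It was 0.50 (95% interval -0.28 to 1.28) without WT 1 and 0.87 with slide as a block. The overlapping probe A_51_P233597 read 1986 in WT 1 and 4784 to 12585 in the other WT mice, against 7879 to 15005 in the hNAG-1 mice. Its log2 fold change was 1.00, and its correlation with the first probe over the 9 arrays was 0.999.

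Lep encodes leptin, the hormone that reports fat stores to the brain. It was printed on 10 features of each array, and the coefficient of variation between these was 3.52% to 12.6%, which gives a measure of the technical error of a single spot. The mean intensity was 172 in WT 1, 322 in WT 2, 467 in WT 3 and 396 in WT 4, and in the hNAG-1 mice it was 432, 509, 455, 330 and 246. WT 1 was lowest and hNAG-1 5 next. Over all mice the difference was a log2 fold change of 0.26 (SE 0.32, 95% interval -0.47 to 0.99). It was -0.03 (95% interval -0.65 to 0.58) without WT 1 and -0.67 (SE 0.33) with slide as a block, where hNAG-1 5 is the hNAG-1 mouse compared with WT 2 to 4. The direction for Lep was therefore not fixed by these arrays.

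Cfd encodes complement factor D, or adipsin, a serine protease secreted by adipocytes. Its intensity was 121721 in WT 1, 155741 in WT 2, 271679 in WT 3 and 338042 in WT 4. In the hNAG-1 mice it was 339092, 287943, 210675, 303768 and 268201. WT 1 and WT 2 lay below every hNAG-1 mouse, while WT 3 and WT 4 lay among them. Between genotypes the log2 fold change was 0.45 (SE 0.31, 95% interval -0.24 to 1.14), and 0.20 (95% interval -0.44 to 0.83) without WT 1.

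Fabp4 encodes the adipocyte fatty acid binding protein, which carries fatty acids through the cytosol. At A_51_P336833 the intensity was 255333, 197634, 262309 and 299511 in WT 1 to WT 4, and 267698, 247967, 255302, 229836 and 279243 in the hNAG-1 mice. Here WT 1 was not low, at 102% of the mean of WT 2 to 4 taken on the log2 scale. The difference was the smallest of the 15 (log2 fold change 0.03, SE 0.16, 95% interval -0.32 to 0.38). At A_51_P336830 the values were 193932 to 269311 in WT mice and 190296 to 276441 in hNAG-1 mice, with a log2 fold change of 0.12. At the probe nearest the 5′ end, A_52_P564544, WT 1 read 6546 and the other WT mice 10260 to 11882, against 8139 to 13980 in the hNAG-1 mice, with a log2 fold change of 0.11. The Fabp4 probes therefore did not give one account of WT 1. The log2 difference between A_51_P336833, at the 3′ end, and A_52_P564544 was 5.29 in WT 1 and 4.24 to 4.93 in the other 8 mice. Whether RNA quality had a part in this was not tested.

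Aqp7 encodes the aquaglyceroporin through which adipocytes release glycerol. At A_51_P378063 the intensity was 187, 306, 308 and 398 in WT 1 to WT 4, and 207, 310, 339, 152 and 413 in the hNAG-1 mice. The lowest and the highest value of the 9 were both in hNAG-1 mice. Its log2 fold change was -0.12 (SE 0.33, 95% interval -0.86 to 0.63). At A_52_P403405, which overlaps the first by 38 bases of genome, it was -0.07 (95% interval -0.79 to 0.65). With slide as a block the sign turned, to 0.30 and 0.24. Aqp7 was the only member with a lower mean in hNAG-1 mice under the main scaling.

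Pnpla2 encodes adipose triglyceride lipase, which removes the first fatty acid of a stored triglyceride. At A_52_P681771 the intensity was 2833, 4642, 4257 and 5618 in WT 1 to WT 4, and 4421, 7668, 6121, 6996 and 6468 in the hNAG-1 mice. Of the 5 hNAG-1 mice, 4 exceeded every WT mouse, and hNAG-1 1 lay within the WT range. The WT mean was 4337 ± 1155 (SD, n = 4) and the hNAG-1 mean 6335 ± 1219 (SD, n = 5). The log2 fold change was 0.57 (SE 0.24, 95% interval 0.03 to 1.10), with an adjusted p of 0.661 in limma and an unadjusted p of 0.0393. The exact permutation test over mice, two-sided, gave p = 0.0476 for this probe. Without WT 1 the log2 fold change was 0.37 and the interval, -0.12 to 0.86, held 0. The other Pnpla2 probe, A_51_P197213, read 18377, 23538, 29796 and 33151 in WT 1 to WT 4 and 23998, 33241, 28013, 35574 and 37243 in the hNAG-1 mice. There the log2 fold change was 0.29 (SE 0.22, 95% interval -0.20 to 0.78), and 0.13 without WT 1.

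Lipe encodes hormone-sensitive lipase, which acts on the diglyceride that adipose triglyceride lipase leaves. The upstream probe A_51_P435366 read 1122, 1145 and 1157 in WT 1 to WT 3 and 1886 in WT 4, against 1374, 1804, 1810, 1099 and 1820 in the hNAG-1 mice. WT 4 stood apart from the other WT mice at this probe, and 3 hNAG-1 mice lay just below it. The log2 fold change was 0.26 (SE 0.23, 95% interval -0.25 to 0.78). At the downstream probe A_51_P435363 the intensity was 413, 846, 762 and 1233 in WT 1 to WT 4 and 724, 1188, 1317, 626 and 1352 in the hNAG-1 mice, with a log2 fold change of 0.39 (SE 0.36, 95% interval -0.41 to 1.19), and of 0.10 without WT 1. WT 1 lay at 82.7% of the mean of WT 2 to 4, taken on the log2 scale, at the upstream probe and at 44.6% at the downstream probe. The log2 difference of the downstream from the upstream probe was -1.44 in WT 1 against -0.93 to -0.43 in the other 8 mice. For the Pnpla2 probes the difference of A_51_P197213 from A_52_P681771 was 2.70 in WT 1, within the 2.12 to 2.81 of the other 8 mice.

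Plin1 encodes perilipin 1, the coat protein of the adipocyte lipid droplet that holds lipases back until the cell is stimulated. The intensity was 1848, 4818, 5164 and 9084 in WT 1 to WT 4, and 4863, 9313, 9394, 3567 and 7602 in the hNAG-1 mice. WT 1 was lowest and hNAG-1 4 next, and the upper values of both genotypes overlapped. Over all mice the log2 fold change was 0.52 (SE 0.47, 95% interval -0.53 to 1.57), and it was 0.09 (95% interval -0.79 to 0.97) without WT 1.

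**Figure D2:**
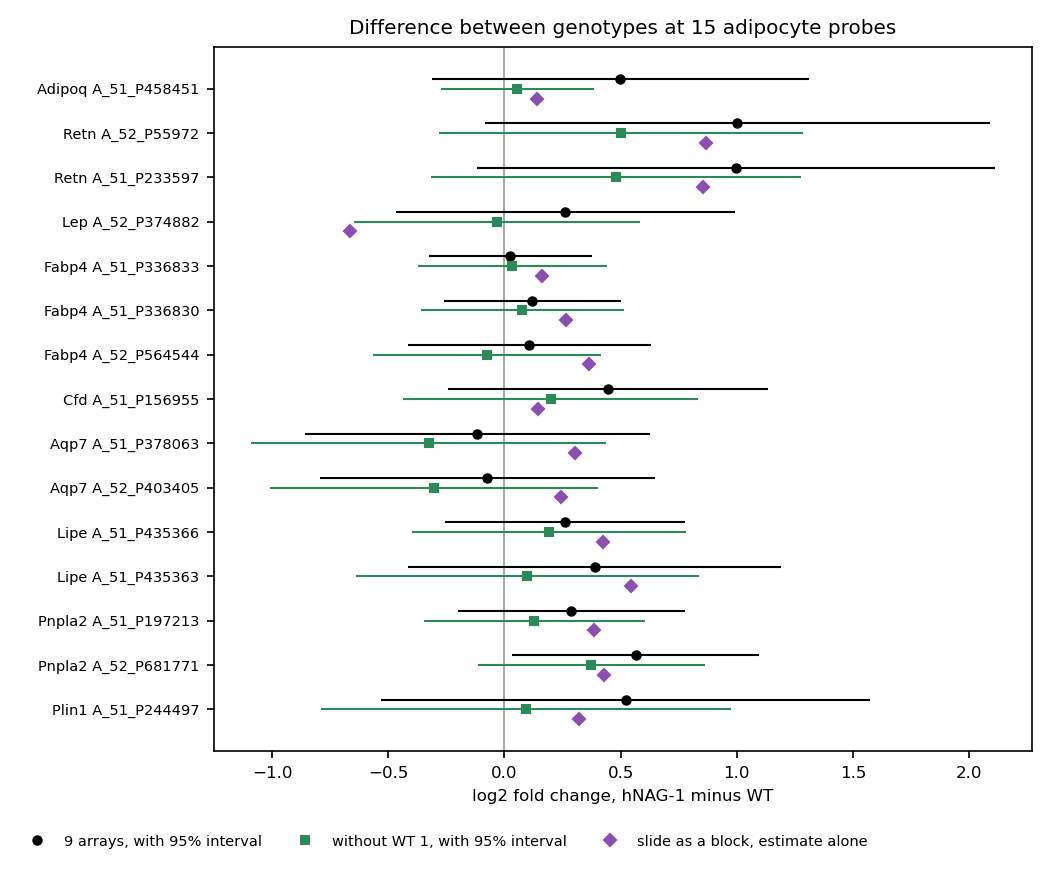
Log2 fold change (hNAG-1 minus WT) at each of the 15 probes, from all 9 arrays and without WT 1, with 95% intervals from limma, and the estimate with slide as a block. Only the interval of Pnpla2 A_52_P681771 over all 9 arrays, 0.03 to 1.10, does not hold 0, and leaving out WT 1 moved 14 of the 15 estimates down.

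At 14 of the 15 probes the SD between WT mice on the log2 scale was larger than the difference between the genotypes. WT 1 had the lowest value of the 9 arrays at 10 of the 15 adipocyte probes, while it was lowest at 10.1% of the 23086 probes well above background on all arrays. It lay below each other WT mouse at 13 of 15 probes, against 19.4% of those 23086 probes. The median log2 difference of WT 1 from the mean of WT 2 to 4 was -0.92 at the adipocyte probes and 0.08 at all detected probes. The between-mouse SD on the log2 scale, as a median over the 15 probes, was 0.52 in the WT group, 0.31 in WT 2 to 4 and 0.33 in the hNAG-1 group, while at all detected probes it was 0.26, 0.23 and 0.27. Of the remaining 5 probes, 4 had their lowest value in hNAG-1 4 (both Aqp7 probes, Lipe A_51_P435366 and Fabp4 A_51_P336830) and 1 in WT 2.

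When each gene was centred on its own mean over the 9 arrays and the 9 genes were averaged, on the log2 scale and with the brightest probe for each gene, WT 1 stood at -0.98, WT 2 at -0.27, WT 3 at 0.07 and WT 4 at 0.39. The hNAG-1 mice stood at 0.04, 0.37, 0.23, -0.14 and 0.29. WT 2 and hNAG-1 4 were thus the next lowest after WT 1, and WT 4 was the highest. Over the 9 arrays, 36 of the 36 pairs of members had a Pearson correlation above 0, with a median of 0.58 and a range from 0.02 to 0.90. Without WT 1 the median was 0.38 and 30 of 36 pairs were above 0, with a range from -0.32 to 0.94. Among all pairs of probes well above background on every array, the median was 0.04 and 53.1% were above 0 over the 9 arrays, and the median was again 0.04, with 53% above 0, without WT 1. These values share the same arrays and scaling and are given as a description.

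**Figure D3:**
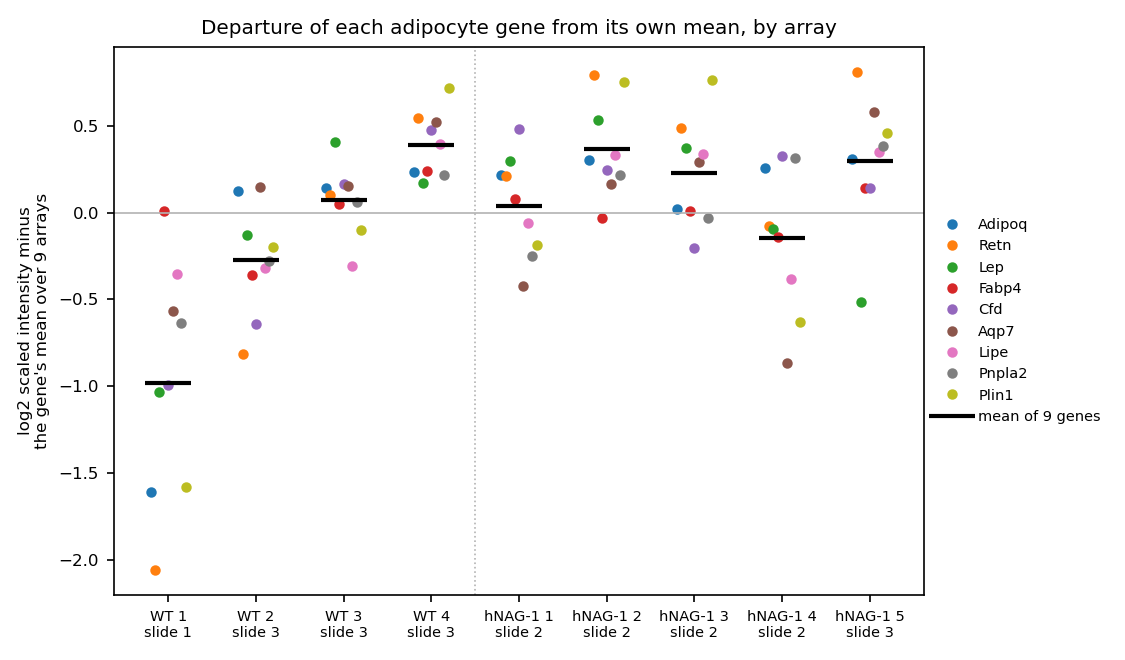
Log2 scaled intensity of each of the 9 adipocyte genes minus the gene's own mean over 9 arrays, by array and slide, with the brightest probe for each gene and the mean of the 9 genes as a black bar. WT 1 has the lowest mean, -0.98, with Fabp4 alone near 0 on that array, and the other 8 means lie between -0.27 and 0.39.

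Among other genes, those whose level across the 9 arrays was most like the average of the members were Rgs7 (r = 0.98), Dgat2, Nat8l (array name 1110038O08Rik), Immp2l, Gpx8 (array name 2310016C16Rik), Mup5, Gys2, Sugct (array name AF397014), Aox1 and Nrg4, the last with r = 0.96. They were the 10 genes with the highest Pearson correlation among the 23086 detected probes, of which 102 reached 0.9 over the 9 arrays and 159 without WT 1. Their Spearman correlations were 0.83 to 0.98, and without WT 1 their Pearson correlations were 0.90 to 0.98. Dgat2, which makes triglyceride from diglyceride, read 2983 in WT 1, 9670 in WT 2, 23165 in WT 3 and 49070 in WT 4, and 28576, 55440, 59657, 18330 and 49668 in the hNAG-1 mice. Gys2, the liver form of glycogen synthase, read 52 in WT 1 and 393 to 1841 in the other WT mice. Nrg4, a growth factor secreted by fat, read 124 in WT 1 and 382 to 987 in the other WT mice.

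**Figure D4:**
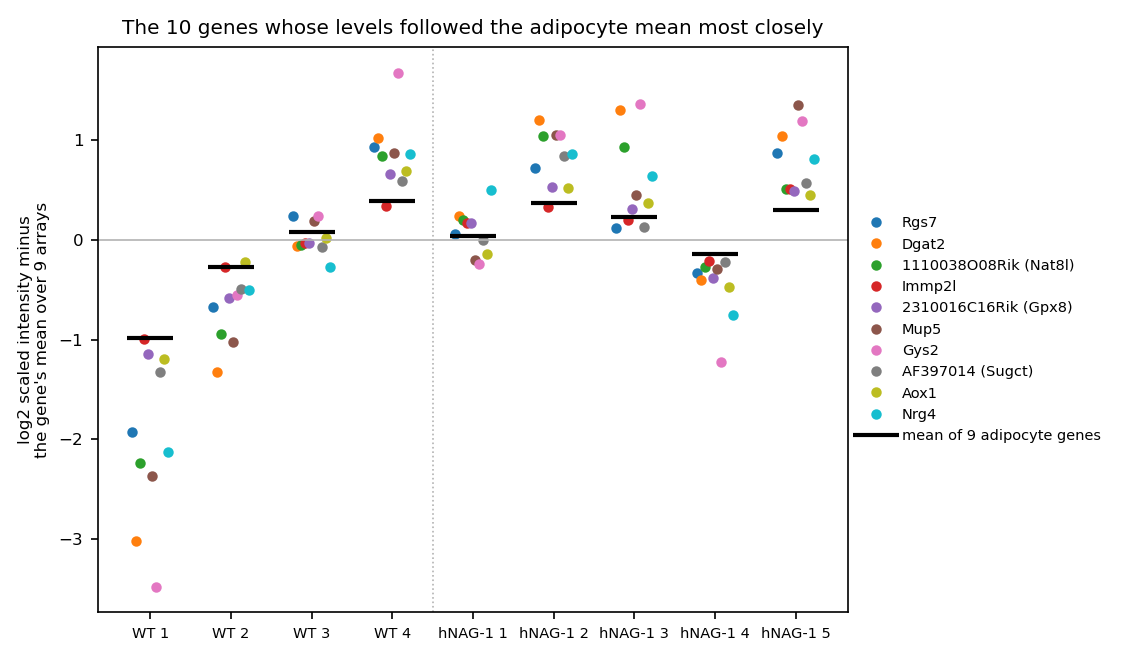
Log2 scaled intensity of the 10 genes most like the average of the adipocyte genes, each minus its own mean over 9 arrays, with the average of the adipocyte genes as a black bar. All 10 genes have their lowest value in WT 1, and in hNAG-1 4 all 10 lie below their own mean.

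The other genes of the adipocyte were read from lists, with the brightest probe for each gene. Of 14 genes that control lipolysis, 10 had a higher mean and 4 a lower mean in hNAG-1 mice, with a median log2 fold change of 0.19, and none had an unadjusted p under 0.05. The largest positive difference in this list was in Npr1, the natriuretic peptide receptor (log2 fold change 0.56, and 0.29 without WT 1, but well above background on 1 WT and 1 hNAG-1 array). Of 9 genes of the lipid droplet coat and caveolae, 7 had a higher and 2 a lower mean, with a median of 0.14. The median was 0.07 without WT 2, with 6 of 9 higher, and 0.07 with slide as a block, with 5 of 9 higher. The extremes were Fitm2 (0.47, and -0.11 with slide as a block), which helps droplets form, and Plin5, a coat protein of oxidative tissues. Plin5 was at -0.42, at -0.73 without WT 1 and at -0.15 with slide as a block. Neither list had a gene that passed the test.

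Of 20 further genes that adipocytes express strongly, 16 had a higher mean in hNAG-1 mice and 4 a lower one, with a median of 0.29. Of these 4 also stand in the lists above (Cidec, Adrb3, Plin4 and Acvr1c). Others are also abundant in further tissues, such as Pck1, Orm1 and Gpd1 in liver and Thrsp in lactating epithelium. Thrsp, a regulator of fatty acid synthesis, read 233284 in WT 1, the highest of the WT mice, and 108764 to 143287 in WT 2 to 4. WT 1 was the lowest array for 11 of the 20, and without WT 1 the median was 0.06, with 11 of 20 higher. With slide as a block 12 of 20 were higher and the median was 0.18, beside 0.19 over all probes in that fit. Mrap, the accessory protein of the ACTH receptor, had the largest difference (668, 1700, 2374 and 3889 in WT 1 to WT 4 against 1958 to 5550 in hNAG-1 mice, log2 fold change 1.08, SE 0.51, and 0.60 without WT 1). Pck1 went the other way. It encodes the cytosolic phosphoenolpyruvate carboxykinase that supplies adipocytes with glycerol phosphate, and it read 10201, 25150, 13787 and 19012 in WT 1 to WT 4 against 5863, 7030, 11333, 4661 and 14998 in the hNAG-1 mice. Its log2 fold change was -1.01 (SE 0.39), with an unadjusted p of 0.0283 and an adjusted p of 0.661 in limma. With slide as a block it was -0.32, and leaving out WT 1 gave -1.23.

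Among 21 adipokines, their relatives and receptors, 11 had a higher mean and 10 a lower mean in hNAG-1 mice, with a median of 0.05 and no unadjusted p under 0.05. With slide as a block 17 of the 21 were higher and the median was 0.50, where all probes had a median of 0.19. Rbp4, a retinol carrier secreted by fat and liver, read 1610 in WT 1 and 5502 to 8068 in the other WT mice, against 4507 to 15833 in the hNAG-1 mice (log2 fold change 0.98, SE 0.52, and 0.47 without WT 1). Itln1, which encodes an omentin, was well above background on 3 WT and 2 hNAG-1 arrays (log2 fold change -0.84, and 0.69 with slide as a block), and it was not well above background on the other 4 arrays. The receptors of adiponectin, Adipor1 and Adipor2, had log2 fold changes of 0.10 and 0.19, and both stand outside the naming rule and were added for their tie to Adipoq.

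Of 11 transcription factors of the adipocyte, 7 had a higher mean and 4 a lower mean, with a median of 0.06. The median was 0.24 without WT 2, with 8 of 11 higher, and 0.15 with slide as a block, where all probes had a median of 0.19. Pparg, the nuclear receptor that drives adipocyte differentiation, was the 1 of the 11 with an unadjusted p under 0.05. It read 2429, 2746, 3280 and 3589 in WT 1 to WT 4 and 3778, 4613, 4065, 3668 and 3996 in the hNAG-1 mice. Every hNAG-1 mouse lay above every WT mouse, which was the case without regard to direction for 1.35% of all probes. The log2 fold change was 0.43 (SE 0.16), the unadjusted p 0.0233 and the adjusted p 0.661 in limma, and the exact permutation p, two-sided, was 0.00794, the smallest that 126 splits of the 9 mice allow. It was 0.33 both without WT 1 and with slide as a block. Srebf1, which drives fatty acid synthesis genes, had the largest positive difference of the list (0.51) and Zfp423, a factor of adipocyte precursors, the most negative one (-0.67). Neither passed the test, and with slide as a block both signs turned, to -0.16 for Srebf1 and 0.51 for Zfp423.

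The promoters of the members were searched for a CCAAT box and for cores that C/EBP factors and nuclear receptors bind. RefSeq entries (build GRCm38.p6) were found for 8 of the 9 genes, with 10 promoters in all, and the 250 bases before each start were read on both strands. A CCAAT box, CCAAT or its reverse complement ATTGG, stood in the promoter of Adipoq, with 3 matches, and in no other member, while 33.8% of the 32851 promoters hold one. The letters TTGCNNAA, a core that C/EBP factors bind, stood in those of Lep and Plin1, against 9.56% of all. The nuclear receptor core AGGTCA was found before Aqp7 (14% of all), and a direct repeat of that core with a single base between, which by its make-up contains the core itself, was found before none of the members (0.0335% of all). A match is a description of letters and not a bound site. The promoters of Adipoq (chr16:23146286-23146535, plus strand) and Lep (chr6:29059971-29060220, plus strand) are shown because both hormones are defining products of the cell and differ in these motifs, which are set in capitals.
Adipoq: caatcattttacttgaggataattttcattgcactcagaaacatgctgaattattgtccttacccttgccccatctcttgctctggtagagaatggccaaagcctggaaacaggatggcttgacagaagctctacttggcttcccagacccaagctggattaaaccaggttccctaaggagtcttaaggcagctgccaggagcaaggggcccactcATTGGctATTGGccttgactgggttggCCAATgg
Lep: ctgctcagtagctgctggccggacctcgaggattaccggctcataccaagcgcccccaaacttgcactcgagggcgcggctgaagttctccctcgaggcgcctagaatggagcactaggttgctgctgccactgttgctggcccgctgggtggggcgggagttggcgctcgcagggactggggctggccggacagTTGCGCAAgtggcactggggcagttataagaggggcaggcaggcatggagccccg

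Of the genes that adipocytes share with the secretory epithelium, 16 of 16 had a higher mean in hNAG-1 mice over all 9 arrays, with a median log2 fold change of 0.40. Without WT 1, 16 of 16 stayed higher, with a median of 0.45, but the direction did not hold for every gene under other settings. WT 2 was the lowest mouse of this list (centred mean -0.89), and without WT 2 the median was 0.24 and 4 of the 16 were lower in hNAG-1 mice. With slide as a block the median was 0.15, beside 0.19 over all probes in that fit, and 5 of the 16 were lower. Elovl6, which lengthens palmitate, read 11901, 8081, 16867 and 21487 in WT 1 to WT 4 and 20324, 33822, 27696, 15729 and 29111 in the hNAG-1 mice (log2 fold change 0.84, SE 0.33, unadjusted p 0.029, adjusted p 0.661 in limma). The largest difference was in Dgat2 (1.52, SE 0.74), which fell to 0.80 without WT 1, and the smallest in Cd36 (0.05), the fatty acid transporter. The relatives of the members in their own gene families, 20 of 21 measured, divided into 11 higher and 9 lower, with a median of 0.03, and into 5 higher and 15 lower without WT 2, with a median of -0.08. Pnpla3 had the largest difference (1.03), which was 0.57 without WT 2 and 0.31 with slide as a block. Fabp1, the liver fatty acid binding protein, had the most negative one (-0.63), but it was well above background on 2 WT and 4 hNAG-1 arrays only, and the sign turned without WT 1 (0.38) and without WT 2 (0.25). No gene of this list passed the test.

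Markers of the other cell types of the pad were set beside these values. The summed intensity of 10 secretory epithelial genes, among them caseins, whey proteins and keratins, was 1228920 to 2226890 in WT and 1596460 to 2289360 in hNAG-1 mice, and WT 1 had the highest centred mean of the 9 mice, 0.31, where it had the lowest for the adipocyte genes. WT 2 had the lowest epithelial mean, -0.48. Of 10 epithelial genes, 9 had a higher mean in hNAG-1 mice, with a median of 0.06. Without WT 1 the median was 0.20, and without WT 2 it was -0.08 with 1 of 10 higher. Preadipocyte and fibroblast markers (5 of 6 higher, median 0.19, summed intensity 38115 to 71146 in WT and 45654 to 92722 in hNAG-1 mice) were lowest in hNAG-1 1 (-0.58) and WT 1 (-0.48). Their median was 0.10 without WT 1, with 3 of 6 higher, 0.10 without WT 2 and 0.41 with slide as a block. Macrophage markers (1 of 5 higher, median -0.10, summed intensity 18204 to 26077 in WT and 12838 to 31582 in hNAG-1 mice) were lowest in WT 1 (-0.81), and their direction turned on single mice, with 4 of 5 higher and a median of 0.11 without WT 2 and 0 of 5 higher and a median of -0.40 without WT 1. Endothelial markers (5 of 5 higher, median 0.21, summed intensity 6134 to 7409 in WT and 5879 to 9268 in hNAG-1 mice) varied from -0.27 to 0.48, and with slide as a block 0 of 5 were higher, with a median of -0.24. The part that differing shares of these cells had in the adipocyte values was not tested.

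Markers of other tissues varied widely between mice, and none passed adjustment. Lymph node lymphocyte genes had a lower mean in hNAG-1 mice at 7 of 7 (median -1.17, and -0.42 without WT 2), with a centred mean of 2.79 in WT 2, whose gland gave the next to lowest adipocyte mean. Their summed intensity was 1180 to 28949 in WT and 827 to 4461 in hNAG-1 mice. Cd2, a T cell surface protein, read 994 in WT 2 and 105 to 173 in the other WT mice, against 44 to 141 in the hNAG-1 mice (log2 fold change -1.50, SE 0.66, unadjusted p 0.0487, adjusted p 0.661 in limma). Its log2 fold change was -0.78 without WT 2 and -0.92 with slide as a block. Of the brown adipocyte markers, 2 of 6 had a higher mean in hNAG-1 mice (median -0.14), 3 of 6 were well above background on all arrays, and Zic1 was not well above background on any. The brown median was -0.35 without WT 1 and -0.45 without WT 2, each with 1 of 6 higher, and 0.00084 with slide as a block. Ucp1, the uncoupling protein that defines brown fat, read 21 and 33 in WT 1 and WT 2, 4937 and 9652 in WT 3 and WT 4, and 7 to 913 in the hNAG-1 mice, and its 3 highest values were in WT 3, WT 4 and hNAG-1 3. The summed brown markers ran from 4345 to 31239 in WT and from 4778 to 9577 in hNAG-1 mice. Skeletal muscle genes had a lower mean in hNAG-1 mice at 5 of 5 (median -1.13, summed intensity 4027 to 79056 in WT and 2876 to 25191 in hNAG-1 mice), with centred means from -2.30 in hNAG-1 2 to 2.80 in WT 4. WT 4 was highest for both the muscle and the adipocyte lists and WT 1 was low for both (-1.18 and -0.98), while in hNAG-1 2 muscle was lowest and the adipocyte mean, 0.37, was the next to highest. The lowest adjusted p in each of these lists was at least 0.661.

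**Figure D5:**
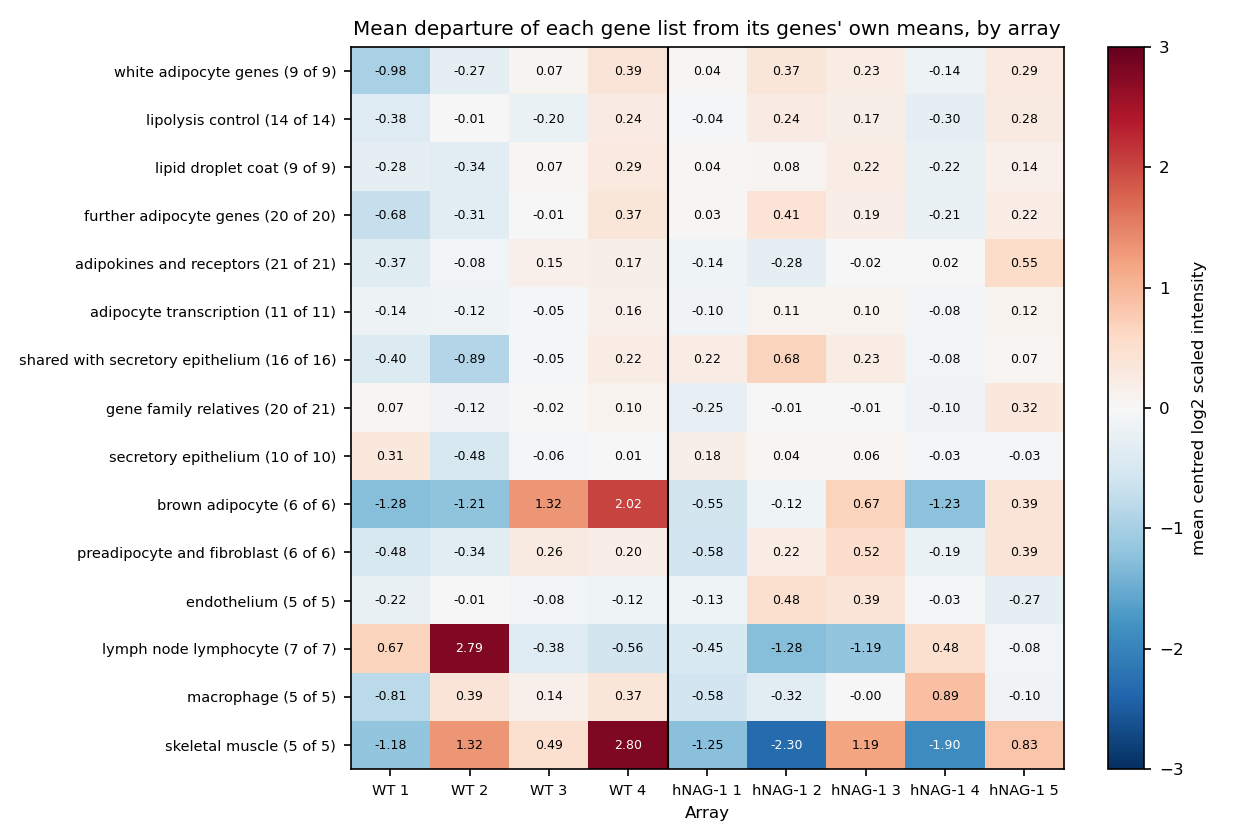
Mean centred log2 scaled intensity of each gene list (genes measured of genes listed) on each array, on a color scale from -3 to 3, WT to the left of the line. The white adipocyte row is lowest in WT 1 (-0.98), where the secretory epithelium row is highest (0.31), and the lymphocyte row is highest in WT 2 (2.79).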

How the data were processed

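The authors hybridized Cy3-labeled cRNA from mammary gland number 4 of 4 WT and 5 hNAG-1 dams to single-color Agilent arrays and deposited the scanner intensity of each feature, which Agilent Feature Extraction (9.5 per the labels, 9.5.3.1 in the headers) had background-subtracted per array. The deposited series table holds the same intensity values. From these, features were scaled to a common 75th percentile over non-control features, features of one probe were averaged, and log2 values of 41174 probes were compared with limma 3.58.1 in R 4.3.3 (two-sided, adjusted over every probe by Benjamini-Hochberg). Single probes were also tested exactly over all 126 splits of the 9 mice. The labels do not tie these mice to litters or cages, so p-values measure the spread between these mice. The number of arrays limits the precision. On simulated arrays, 54% of probes changed 1.5-fold and 86% of those changed 2-fold had an unadjusted p under 0.05 and none of either passed adjustment, while 77% of those changed 4-fold passed. The 9 genes and the lists (150 of 151 genes measured) were chosen with earlier results of these data known. Named genes are all members, the extremes of the adipocyte lists, genes with an unadjusted p under 0.05, and the 10 most alike. The rule also covers the extremes of the marker lists, which are given by counts and medians except Ucp1 and Zic1. Adipor1 and Adipor2 were added. Alternatives covered background correction, scaling, filters, tests, slide and each mouse left out. Lists and correlations without WT 1 or WT 2, lists with slide as a block and correlations over all probe pairs were added after seeing the data. No probe position beyond the design coordinates was used. The most negative difference in the lipolysis list is not reported here.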

Additional observations from a re-analysis of the deposited data

Results flagged for a closer look

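In the WT group, WT 1 lay apart from the other 3 mice for Adipoq: the gap to the nearest mouse was 0.94 of the whole WT range on the log2 scale, with intensities of 9248 in WT 1 and 30736 to 33189 in WT 2 to 4. The upper end of the same group stood apart for Lipe A_51_P435366, where the gap from WT 4 (1886) to the next mouse (1157) was also 0.94 of the range on that scale. Chance puts about 1 in 20 groups past the 95% critical value of Dixon's test that was used, and 30 groups of member values were examined. The lower Lipe value was shared by WT 1 to 3 and hNAG-1 4 (1099).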

How the results depend on the processing

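No member probe had an adjusted p under 0.05 under any of the 24 alternatives, and the members' median log2 fold change stayed above 0 (0.09 to 0.44 when each mouse was left out). The methods' one-way test, run on the same values, put 1 member probe under 0.05 before adjusting its p (4.82% of all probes) and 0 once adjusted. The number of member probes with an unadjusted p under 0.05, 1 as reported, was 3 with normexp background correction (2.57% of all probes), 3 with median scaling (8.76%) and 2 with trended robust variances (5.63%). It was 0 with quantile normalization (6.36%), without scaling (5.02%), with array weights (15.2%), with slide as a fixed block (7.61%) and on slide 3 alone (9.04%), and 0 to 4 when each mouse was left out (0 without WT 1, against 4.92% of all probes, and 4 without WT 4, against 4.15%). Without hNAG-1 5, the only hNAG-1 mouse on a slide with WT mice, the count was 0, against 14.4% of all probes. In that fit 215 probes of the array passed adjustment, none of them a member. Scaling to the median moved the median of all probes to 0.20, no scaling to -0.16 and the slide block to 0.19. The sign turned for Aqp7 A_52_P403405 with normexp (0.016), quantile normalization (0.0059), median scaling (0.14) and slide as a block or slide 3 alone (0.24), and for Aqp7 A_51_P378063 with median scaling (0.10) and slide (0.30). It turned for Lep with slide (-0.67). It turned for Fabp4 A_51_P336833 with quantile normalization (-0.0044), no scaling (-0.12) and array weights (-0.10), for Fabp4 A_51_P336830 with no scaling (-0.027), and for Fabp4 A_52_P564544 with no scaling (-0.040) and array weights (-0.034). Leaving out each mouse gave -0.033 to 0.45 for Lep, -0.089 to 0.11 for Fabp4 A_51_P336833, -0.076 to 0.21 for A_52_P564544, -0.33 to 0.088 for Aqp7 A_51_P378063 and -0.30 to 0.12 for A_52_P403405. No scaling and median scaling shift every probe alike, which accounts for the turns under them. The causes of the others were not tested. Replicate numbers did not pair the mice (correlations of deviations 0.28, -0.20, -0.14 and -0.31). With the replicate number as a block, which leaves out hNAG-1 5, no member probe passed adjustment, and Fabp4 A_51_P336833 (-0.0064) and A_52_P564544 (-0.0036) turned. With these arrays the 95% interval spans more than 2-fold at 12 of the 15 probes.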
